A study of Mus musculus with 8 samples.

Results

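Stanniocalcins and adrenomedullins are secreted signalling proteins, and their transcripts were examined here together with the parts of the adrenomedullin receptor. The 8 genes were taken by name, with no threshold on a measured value but with earlier results of these data known, from the 20254 genes of a table of RNA sequencing data. They are 4 ligand genes, Stc1, Stc2, Adm and Adm2, and 4 genes for receptor parts, Calcrl, Ramp1, Ramp2 and Ramp3. The data come from nephron progenitor cells, the self-renewing cap mesenchyme of the embryonic mouse kidney, at embryonic day 17.5. Mutant cells (4 libraries, genotype VHLNP-/-) were homozygous for a deleted Vhl allele, and control cells (4 libraries, genotype VHLNP+/-) were heterozygous for it, so the controls also lacked 1 copy. Both groups carried the Six2EGFPcre transgene, which makes a fusion of GFP and Cre recombinase under Six2, a transcription factor of these progenitors. Cre therefore acts where Six2 is expressed, and cells were sorted by the GFP of the same transgene. Vhl encodes the part of a ubiquitin ligase that, when oxygen is present, targets hypoxia-inducible factor (HIF) for degradation through its alpha subunits. The series asks how Vhl bears on the metabolism and differentiation of these cells. Whether libraries were made from single embryos or from pools is not stated in the labels; p-values therefore describe the spread between these libraries, part of which may be technical.

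Stanniocalcins are glycoprotein hormones first known from fish, where they lower calcium uptake; in mammals they act near the cells that release them. Both mammalian forms inhibit the pappalysins, proteases that cut insulin-like growth factor (IGF) binding proteins and so free IGF. Adrenomedullin, encoded by Adm, is a vasodilator peptide needed for blood and lymphatic vessels, and Adm2 encodes a related peptide also called intermedin. Their receptor is a heterodimer. Calcrl is a G protein-coupled receptor that reaches the membrane with a RAMP accessory protein, and the accessory protein sets its preference: with Ramp1 it is a receptor for calcitonin gene-related peptide, with Ramp2 or Ramp3 for adrenomedullin. In human cells ADM and STC2 are known as genes induced by low oxygen through HIF.

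HIF binds a core motif that can be written ACGTG or GCGTG, and the bases just before the start of a gene are shown for ligand genes because these genes rose together in mutants. RefSeq windows on GRCm38.p6 were at hand for 6 of the 8 genes, and Stc1 and Ramp2 had none in the table used. The 250 bases before the RefSeq start of Stc2 (chr11:31370062-31370311, minus strand), Adm (chr7:110627407-110627656, plus strand) and Adm2 (chr15:89322470-89322719, plus strand) are given on the strand of each gene, with capitals for either motif on either strand.
Stc2: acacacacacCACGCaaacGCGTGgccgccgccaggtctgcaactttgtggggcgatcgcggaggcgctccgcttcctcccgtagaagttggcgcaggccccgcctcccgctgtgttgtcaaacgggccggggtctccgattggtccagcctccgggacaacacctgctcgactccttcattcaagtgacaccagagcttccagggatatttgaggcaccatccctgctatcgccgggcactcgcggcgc
Adm: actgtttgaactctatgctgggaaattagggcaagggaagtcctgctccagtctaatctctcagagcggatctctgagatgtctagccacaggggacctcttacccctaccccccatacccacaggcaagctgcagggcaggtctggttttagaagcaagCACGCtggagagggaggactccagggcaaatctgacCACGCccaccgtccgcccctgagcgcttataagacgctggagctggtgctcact
Adm2: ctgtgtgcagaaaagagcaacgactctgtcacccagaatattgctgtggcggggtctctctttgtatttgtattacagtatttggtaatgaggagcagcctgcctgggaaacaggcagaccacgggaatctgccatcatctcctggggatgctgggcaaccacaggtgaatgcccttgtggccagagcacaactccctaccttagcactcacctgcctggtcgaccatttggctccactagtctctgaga
Stc2 and Adm each held 2 matches to GCGTG and Adm2 held 0. The Stc2 matches begin at -240 on the opposite strand and at -231 on the strand of the gene, and the Adm matches begin at -90 and -54, both on the opposite strand. Among the receptor parts Ramp3 held 2 matches and Calcrl and Ramp1 held 0. Of all 32851 windows of this length 38.6% held a match, so a match is common, and these letters do not show binding by a factor.

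Libraries held 37252683 to 46515762 reads assigned to genes. Levels are normalised reads, that is reads divided by the size factor of the library. Log2 fold changes give mutant minus control after 1 was added to each normalised value, so the change of a gene with few reads is understated. Genes that reached 10 normalised reads in 4 or more libraries were tested, and a gene was called at a limma adjusted p under 0.05 over all 15381 tested genes. Vhl, the check of the labels, was at 318 ± 23.2 normalised reads in mutants and 1225 ± 107 in controls (SD, n = 4 each). Progenitor markers Six2 (24101 ± 2213 in mutants, 25540 ± 2806 in controls) and Cited1 (2792 ± 384 in mutants, 2951 ± 348 in controls) were abundant in both groups (SD, n = 4 each) and not called. Of the 12 progenitor markers Gdnf rose and Meox1, Osr1, Tmem100 and Dpf3 fell, the falls with log2 fold changes between -0.53 and -0.25. These 5 of 12 stand beside 8.43% called over all tested genes, so calls were more frequent in this short list. They are named after their values were seen. All 15 endothelial and 12 stromal markers were also detected, with summed endothelial levels of 2504 to 3432 normalised reads in mutants and 1824 to 3638 in controls, and summed stromal levels of 26146 to 49432 in mutants and 29749 to 60449 in controls. For any gene, fewer cells of a type and less RNA per cell cannot be told apart in such bulk libraries.

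All 4 ligand genes rose in mutants, and of the receptor parts 1 fell, 2 were not called and 1 was below the minimum for testing. Across all tested genes 5.40% rose and 3.03% fell, 8.43% in all. The median log2 fold change was 3.19 over the 4 ligand genes and -0.29 over the 3 tested receptor parts, beside -0.01 over all tested genes. In each of the 4 ligand genes every mutant library lay above every control library, which was true of 8.54% of tested genes.

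Stc2 had one of the largest changes in the data, the 6th largest rise among tested genes. It was at 2474, 2606, 2164 and 2368 normalised reads in mutants 1 to 4, against 115, 100, 117 and 109 in controls 1 to 4. Both groups were tight, with an SD of 7.8% of the mean in mutants and 6.9% in controls. The log2 fold change was 4.43 (SE 0.09, 95% interval 4.25 to 4.62, limma adjusted p = 7.90e-11). The gene lies on chromosome 11 from 31357307 to 31370074 (GRCm38, GENCODE), minus strand, and no other annotated gene overlaps it.

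Stc1 rose less in ratio but gained more reads. Its values were 3723, 3558, 4062 and 3812 normalised reads in mutants, against 834, 1153, 878 and 1071 in controls. The lowest mutant library thus stood far above the highest control library. The rise was 3.88-fold (log2 fold change 1.96, SE 0.10, 95% interval 1.74 to 2.17, adjusted p = 1.89e-07). Stc1 lies on chromosome 14 from 69029238 to 69041804, plus strand, and an annotated antisense gene, Gm41192, overlaps it. Reads of the pair cannot be told apart, since no source used here says if strand was used in counting.

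The stanniocalcin pair shifted in makeup. Within a library the log2 ratio of Stc2 over Stc1 was -0.66 ± 0.19 in mutants and -3.14 ± 0.32 in controls (SD, n = 4 each). The difference was 2.48 (SE 0.19), or 5.57-fold, with a two-sided exact permutation p of 0.0286 over 70 relabellings and an adjusted p of 0.0381 over the 4 pairs compared. The raw value is the smallest that 4 against 4 libraries allow. Per kilobase of transcript, Stc2 made up 40.3 ± 3.20% of the summed level of both genes in mutants and 10.9 ± 2.11% in controls (SD, n = 4 each), and Stc1 remained the more abundant in each library.

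Adm2 was clearly expressed in mutants and close to the minimum for testing in controls. It was at 272, 255, 229 and 245 normalised reads in mutants, against 8.73, 11.8, 8.35 and 12.5 in controls. The control values rest on 9, 12, 8 and 13 whole reads, and the mutant values on 287, 275, 227 and 214. The log2 fold change was 4.49 (SE 0.18, 95% interval 4.09 to 4.88, adjusted p = 2.18e-08), the 4th largest rise among tested genes. Its interval overlaps that of Stc2, so the order of these rises is not settled. Adm2 lies on chromosome 15 from 89322720 to 89324731, plus strand, with no overlapping gene.

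Adm had the smallest estimated rise of the ligand genes and was the most variable. Its 95% interval, given below, overlaps that of Stc1 (1.74 to 2.17), so the order of these 2 rises is not settled. Its values were 122, 86.2, 128 and 89.4 normalised reads in mutants, against 37.8, 73.6, 23.0 and 29.8 in controls. The groups did not overlap, but control 2 came close to the lowest mutant library, and the SD was 55.0% of the mean in controls and 20.3% in mutants. The rise was 2.77-fold (log2 fold change 1.47, SE 0.32, 95% interval 0.77 to 2.16, adjusted p = 0.0152). The call was lost without control 4 (adjusted p = 0.0550) or mutant 3 (adjusted p = 0.0535), and leaving out any other library kept it. Control 2 also had the highest summed endothelial markers of the controls (3638 normalised reads, against 2934 to 2997 in controls 1 and 4 and 1824 in control 3). The same library was highest of the controls in summed leukocyte markers (1047, against 549 to 721) and summed podocyte markers (23438, against 18162 to 18930). The part of any of these cell types in its Adm level was not tested. Adm lies on chromosome 7 from 110627661 to 110629820, plus strand, and the antisense gene Gm28863 overlaps it.

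Within the adrenomedullin pair the more abundant transcript was Adm2 in each mutant library and Adm in each control library. The log2 ratio of Adm2 over Adm was 1.24 ± 0.32 in mutants and -1.77 ± 0.62 in controls (SD, n = 4 each), a difference of 3.02 (SE 0.35). The two-sided exact permutation p was 0.0286, adjusted to 0.0381 over the 4 pairs. Per kilobase, Adm2 was 71.7 ± 4.64% of the summed level of both in mutants and 23.4 ± 7.50% in controls (SD, n = 4 each).

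**Figure D1:**
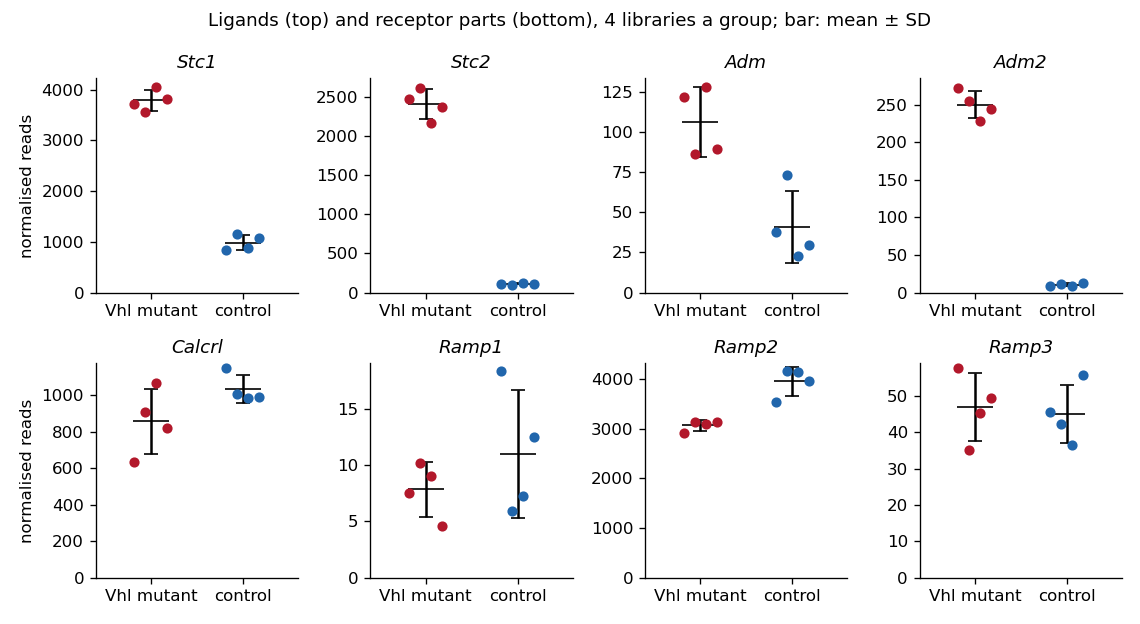
Normalised reads (y axes, each from 0) of the 8 genes in 4 Vhl mutant (red, left) and 4 control (blue, right) libraries; points are libraries and bars are mean ± SD. All 4 ligand genes in the upper row stand apart between groups, such as Stc2 with 2164 to 2606 in mutants and 100 to 117 in controls, while in the lower row the groups stand apart for Ramp2 alone.

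Calcrl, the receptor shared by these peptides, was not called. It was at 635, 907, 1066 and 819 normalised reads in mutants, against 1149, 1007, 987 and 990 in controls. Controls 2 to 4 lay close together, the groups overlapped through mutant 3, and mutant 1 was lowest. The log2 fold change was -0.29 (SE 0.14, adjusted p = 0.234), and its 95% interval of -0.60 to 0.01 leaves room for a fall. Without mutant 1 the log2 fold change was -0.16, and it ranged from -0.41 to -0.16 with 1 library left out, with no call. Calcrl is a known gene of endothelium. Summed endothelial markers were 3432, 2504, 2644 and 2786 normalised reads in mutants 1 to 4, against 2997, 3638, 1824 and 2934 in controls 1 to 4, and their part in the Calcrl values was not tested. The gene lies on chromosome 2 from 84330626 to 84425411, minus strand.

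Ramp2, the accessory protein of the main adrenomedullin receptor, fell. It was at 2910, 3137, 3096 and 3130 normalised reads in mutants, against 3535, 4173, 4148 and 3971 in controls. No mutant library reached the lowest control library, as for 6.72% of tested genes, and mutants 2 to 4 were nearly equal. The mutant mean was 77.5% of the control mean, with a log2 fold change of -0.36 (SE 0.06, 95% interval -0.50 to -0.23, adjusted p = 0.00425). In the deposited values taken as they are, which carry a second division described in the methods, the change was -0.36 with an adjusted p of 0.0958. Of 15 tested endothelial markers 0 fell and 1, Plvap (named after its values were seen), rose, with a median log2 fold change of 0.04; their part in the fall of Ramp2 was not tested. Of 8 podocyte markers 1 rose and 1 fell. Their sum was 15208 to 17065 normalised reads in mutants and 18162 to 23438 in controls. Most of that sum was Wt1, named after its values were seen. Wt1 was at 13980 ± 746 in mutants and 15147 ± 508 in controls (SD, n = 4 each, limma adjusted p = 0.243), with overlapping groups. The sum thus says little of the other podocyte markers, and the part of podocytes in the fall of Ramp2 was not tested either. Ramp2 lies on chromosome 11 from 101246028 to 101259546, plus strand; its annotated transcripts overlap Vps25 on the same strand, so reads in the shared part are uncertain.

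Ramp3, the alternative adrenomedullin accessory protein, was low in both groups. It was at 57.8, 35.2, 45.3 and 49.3 normalised reads in mutants, against 45.6, 42.2, 36.5 and 55.7 in controls. The libraries of the groups were mixed, and the log2 fold change was 0.05 (SE 0.21, 95% interval -0.41 to 0.51, adjusted p = 0.919). The log2 ratio of Ramp3 over Ramp2 was -6.02 ± 0.33 in mutants and -6.44 ± 0.31 in controls (SD, n = 4 each), a difference of 0.42 (SE 0.23, two-sided exact permutation p = 0.143, adjusted p = 0.143 over the 4 pairs). A change in the balance of these accessory genes was thus not shown, and the p does not show that there was none.

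Ramp1, the accessory protein that makes Calcrl a receptor for calcitonin gene-related peptide, was close to absent. It had 8, 11, 9 and 4 whole reads in mutants 1 to 4, against 19, 6, 7 and 13 in controls 1 to 4. With at least 10 normalised reads in 3 libraries, it was not tested. A fit without that minimum gave a log2 fold change of -0.37 (SE 0.39, 95% interval -1.22 to 0.49). A modest difference in either direction was thus not resolved at this depth. Ramp2 carried nearly all Ramp transcripts per kilobase, 98.4 ± 0.315% in mutants and 98.8 ± 0.293% in controls (SD, n = 4 each). The exact share depends on the transcript length used and on the reads shared with Vps25. With the union of exons as length, Ramp2 was at 929 ± 32.4 in mutants and 1199 ± 89.4 in controls. Ramp3 was then at 34.0 ± 6.78 in mutants and 32.6 ± 5.84 in controls (SD, n = 4 each).

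Ligand and receptor levels were set against each other per kilobase of the longest principal transcript in GENCODE, since longer transcripts give more reads. In mutants the order of mean levels, in normalised reads per kilobase, was Ramp2 (2605 ± 90.9), Stc1 (903 ± 50.1), Stc2 (610 ± 47.3), Adm2 (193 ± 14.0), Calcrl (175 ± 36.9), Adm (76.6 ± 15.6), Ramp3 (38.0 ± 7.59) and Ramp1 (3.38 ± 1.05; SD, n = 4 each). Of neighbours in that order the libraries of Adm2 and Calcrl overlapped, and no others did with this length. With the union of exons as length the mutant levels of Ramp2 (929 ± 32.4) and Stc1 (903 ± 50.1; SD, n = 4 each) differed by less than their spread, so the lead of Ramp2 there depends on the length used. In controls it was Ramp2 (3359 ± 250), Stc1 (234 ± 36.4), Calcrl (212 ± 15.9), Ramp3 (36.5 ± 6.54), Adm (29.5 ± 16.2), Stc2 (28.0 ± 1.94), Adm2 (7.97 ± 1.62) and Ramp1 (4.74 ± 2.45; SD, n = 4 each). There the libraries of Stc1 and Calcrl overlapped, those of Ramp3, Adm and Stc2 did so too, and so did those of Adm2 and Ramp1.

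Both adrenomedullins lay below Calcrl in controls, while in mutants Adm2 reached its level. Among the 14861 tested genes with a length, Stc2 stood at percentile 64.4 in mutants and 17.2 in controls, and Adm2 at 39.1 in mutants and 6.4 in controls. Stc1 stood at 74.7 in mutants and 42.7 in controls, while Ramp2 stayed near the top at 92.8 in mutants and 94.8 in controls. The summed ligand level over the summed receptor-part level was 0.633 ± 0.0342 in mutants and 0.0829 ± 0.0110 in controls (SD, n = 4 each). The receptor parts are those of adrenomedullin, but stanniocalcins made up most of the ligand sum. Their share was 84.9 ± 0.907% in mutants and 87.8 ± 3.74% in controls (SD, n = 4 each), and Ramp2 made up most of the receptor-part sum. The ratio is therefore not a balance of a ligand with its own receptor. With the union of exons as length, which counts exons of Ramp2 transcripts that run into Vps25, the ratios were 1.43 in mutants and 0.199 in controls, so the ratio depends on the length used, while its rise does not.

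**Figure D2:**
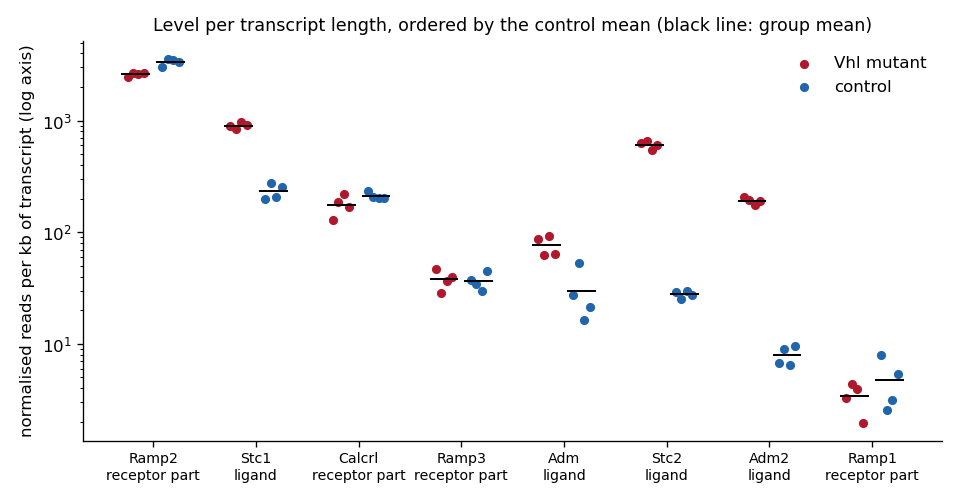
Normalised reads per kilobase of transcript (y axis, log scale) for the 8 genes, ordered by control mean, in Vhl mutant (red, left of each pair) and control (blue, right) libraries; black lines are group means. Stc2 and Adm2 stand above Ramp3 in mutants, at 610 and 193, and below it in controls, at 28.0 and 7.97, while Ramp2 has the highest level in both groups with this length.

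The ligand moved against its receptor as well. The log2 ratio of Adm over Calcrl was -2.99 ± 0.44 in mutants and -4.75 ± 0.70 in controls (SD, n = 4 each). The groups did not overlap, and the difference of 1.76 (SE 0.41) had a two-sided exact permutation p of 0.0286 and an adjusted p of 0.0381 over the 4 pairs. Beside it stand the log2 fold changes of the single genes, 1.47 for Adm and -0.29 for Calcrl.

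**Figure D3:**
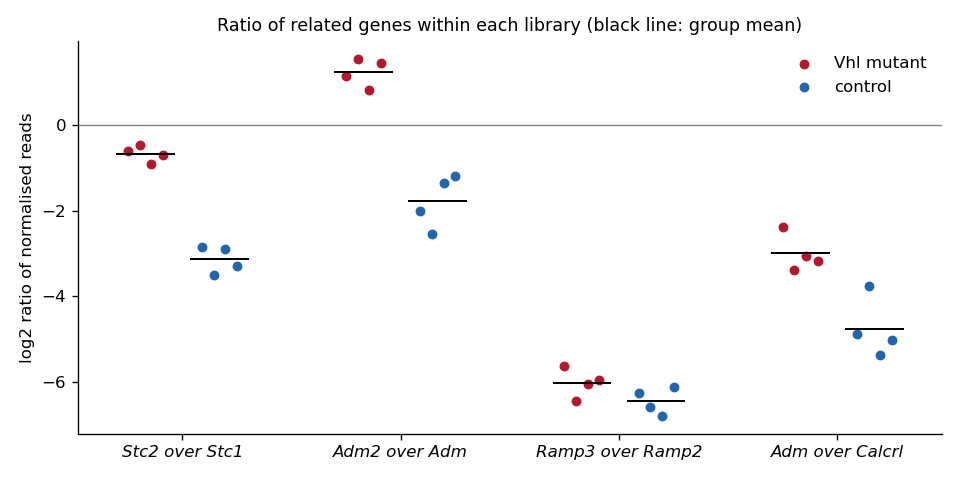
Log2 ratio of normalised reads of related genes within each library (y axis) for 4 pairs, in Vhl mutant (red, left) and control (blue, right) libraries; black lines are group means. Groups stand apart for Stc2 over Stc1, Adm2 over Adm and Adm over Calcrl, and overlap for Ramp3 over Ramp2.

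Of 25 tested genes that act with adrenomedullin 1 rose and 0 fell, with a median log2 fold change of -0.07. The called share of 4.0%, beside 8.43% of all tested genes, shows nothing particular to this list. The risen gene was Adcy8, an adenylyl cyclase stimulated by calcium, at 1505, 1774, 1702 and 1566 normalised reads in mutants, against 982, 1087, 1225 and 1090 in controls. It rose 1.49-fold (SE 0.08 on the log2 scale, adjusted p = 7.85e-04), with no overlap between groups. Gnas, which encodes the stimulatory G protein alpha subunit behind the receptor, was at 46935 ± 3230 in mutants and 48830 ± 1461 in controls (SD, n = 4 each, adjusted p = 0.624). Pam, the enzyme that amidates adrenomedullin into its active form, was at 3130 ± 206 in mutants and 3127 ± 240 in controls (SD, n = 4 each, adjusted p = 0.988). Ackr3, an atypical receptor that clears adrenomedullin, was at 2974 ± 216 in mutants and 3923 ± 984 in controls (SD, n = 4 each, adjusted p = 0.249). Of the related peptide system, Calca (10.7 ± 3.61 in mutants, 12.1 ± 4.54 in controls) and the calcitonin receptor gene Calcr (2.71 ± 3.63 in mutants, 3.65 ± 2.95 in controls) were too low to be tested (SD, n = 4 each).

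Of 17 tested stanniocalcin partners 1 rose and 2 fell, with a median log2 fold change of -0.04. The called share, 17.6%, stands beside 8.43% of all tested genes, and 3 genes are too few to read as a pattern. Igfbp4, which encodes an IGF binding protein cut by the pappalysin Pappa, was at 14814, 15924, 13333 and 15686 normalised reads in mutants, against 17239, 18958, 18998 and 19919 in controls. It fell, with a log2 fold change of -0.33 (SE 0.07, adjusted p = 0.0135). Igf1r, the receptor for IGF, rose 1.34-fold, to 10985 ± 867 in mutants, against 8212 ± 454 in controls (SD, n = 4 each, adjusted p = 0.00272). Slc20a1, a sodium-dependent phosphate carrier, fell by 0.31 on the log2 scale, to 1927 ± 45.2 in mutants, against 2389 ± 156 in controls (SD, n = 4 each, adjusted p = 0.00760).

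The protease genes themselves, the targets of stanniocalcins, were not called. Pappa ranged from 240 to 307 normalised reads in mutants and more widely, from 118 to 404, in controls. Pappa2 was at 761 in mutant 1 and 240 to 333 in the other mutants, against 98.1 to 312 in controls. Pappa was at 279 ± 30.9 normalised reads in mutants and 233 ± 121 in controls (SD, n = 4 each, adjusted p = 0.529), and Pappa2 at 395 ± 247 in mutants and 220 ± 91.1 in controls (SD, n = 4 each, adjusted p = 0.397). Igfbp5, a binding protein cut by Pappa and Pappa2 and named after its values were seen, was at 96169 ± 11497 in mutants and 77482 ± 6014 in controls (SD, n = 4 each, adjusted p = 0.0650).

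**Figure D4:**
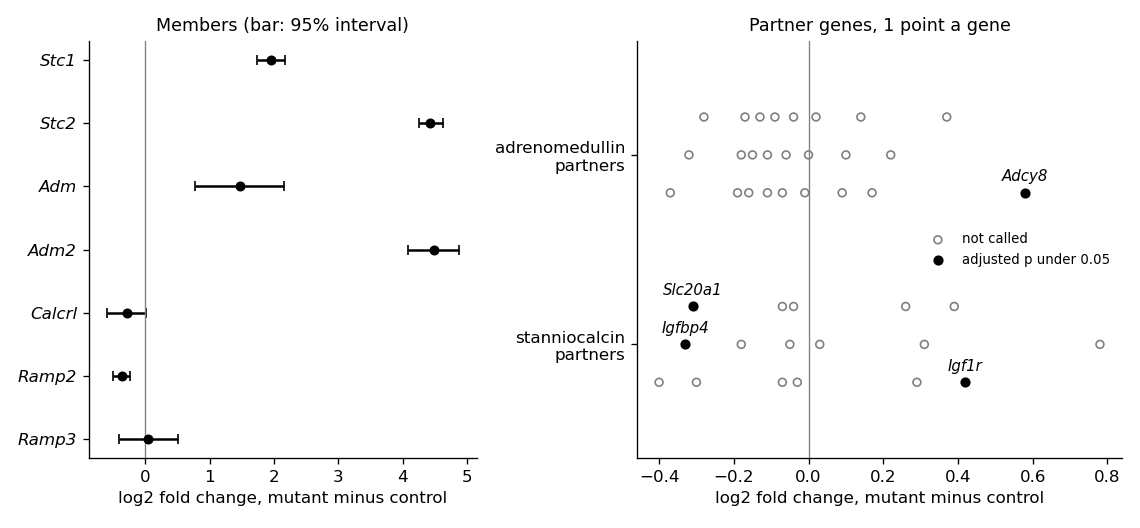
Log2 fold changes, mutant minus control (x axes). The left panel gives the 7 tested genes with 95% intervals, where the 4 ligand genes lie between 1.47 and 4.49; the right panel gives partner genes, 1 point a gene, filled where the adjusted p was under 0.05 (Adcy8, Igf1r, Igfbp4 and Slc20a1).

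The genes most like each called gene were those with the smallest root mean square difference over the 8 libraries, after each gene was centred on its own mean log2 level. By this measure genes with a like difference between groups come first. For Stc2 they were Mgarp, which encodes a mitochondrial protein (0.15), Adm2 (0.22) and Fam184b (0.30), and for Adm2 they were Mgarp, Stc2 (0.22 each) and Fam184b (0.24), so both ligand genes are among the nearest of each other. Mgarp was at 1011 ± 44.8 normalised reads in mutants and 41.3 ± 2.91 in controls (SD, n = 4 each). Stc1 was nearest to the class II antigen gene H2-Aa (0.13), the mitochondrial protein gene Higd1a (0.13) and Ankrd37 (0.14), and Higd1a was at 5847 ± 403 in mutants and 1482 ± 135 in controls (SD, n = 4 each). Adm was nearest to the class I antigen gene H2-K1 (0.28), Cpvl (0.29) and Tmem239 (0.30). Ramp2 was nearest to Fuz (0.031), a planar cell polarity gene, Alkbh4 (0.042) and Myoz1 (0.044), of which Myoz1 was not called (adjusted p = 0.142).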

How the data were processed

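Each library has a deposited signal per gene. The column headers do not state how it was scaled. Worked out from the values, it is reads over size factors, divided again by the same 8 factors recycled down the genes, and rounded. For 20254 of 20254 genes whole reads were rebuilt that give back the authors' deposited mean (relative tolerance 1e-09), and these were divided once by the size factors (0.872 to 1.078). STAR 2.5.3a, DESeq2 1.18.1 and mm10 are named in the submitters' processing notes, and libraries were stranded and made from polyadenylated RNA per the labels' protocols; the read counter, annotation and strand setting are not stated in them. The authors' log2 fold changes and p-values, also deposited, served as an alternative.

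Log2(value + 1) was fitted with limma 3.58.1 (R 4.3.3), with mean-dependent robust variances, over 8 libraries with no covariate, and p-values were Benjamini-Hochberg adjusted over 15381 genes. The method was tested on simulated data. Ratios of paired genes had two-sided exact permutation tests; 5 pairs were planned, and Ramp1 over Ramp2 was left out because Ramp1 was not tested. A planned count model (a quasi-likelihood test) was not run on the rebuilt reads; an alternative fit of these reads used limma-voom. Positions and lengths are from GENCODE M21 (GRCm38, the assembly of mm10); transcript length was chosen after the data were seen. Members and lists were chosen with earlier results of these data known. Named genes are the 8 members, called partner genes, 8 set partner genes (Calcb is not analysed here), the 3 nearest genes of each called member and Vhl; other genes are said to be named after their values were seen, apart from Six2, Cited1, Gnas and Vps25, which are context. Stromal, leukocyte and ureteric marker lists had 0 calls, and of 12 progenitor markers 1 rose and 4 fell, beside 8.43% called over all tested genes.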

Additional observations from a re-analysis of the deposited data

Results flagged for a closer look

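Named genes and summed marker lists were looked at in both groups of 4 libraries, 48 groups of values in all, and 3 values lay far from the rest of their group by Dixon's criterion; chance gives about 1 in 20 groups. Calcrl was at 1149 normalised reads in control 1, the highest control, with the other 3 controls between 987 and 1007. The summed podocyte markers were lowest in mutant 4 among mutants (15208 normalised reads) and highest in control 2 among controls (23438 normalised reads).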

How the results depend on the processing

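The members called numbered 4 or 5 under every alternative run, and Stc1, Stc2 and Adm2 kept their calls and directions in all of them (log2 fold changes 1.86 to 2.07, 4.35 to 4.48 and 3.82 to 4.59). Adm was not called at a threshold of 0.01 (1.47, adjusted p = 0.0152), and ranged from 1.24 to 1.79 when 1 library was left out. Ramp2 lost its call in the deposited values as they are (-0.36). Ramp3, without a call, turned to -0.05 with library quality weights and ranged from -0.05 to 0.18 with 1 library left out. With 1 library left out, the pair differences ranged from 2.35 to 2.58 (Stc2 over Stc1), 2.76 to 3.21 (Adm2 over Adm) and 1.55 to 2.09 (Adm over Calcrl). Without any 1 mutant the permutation adjusted p was 0.0571 for Stc2 over Stc1 and for Adm2 over Adm. For Adm over Calcrl it was 0.0571 to 0.0762. The adjustment is over the 4 pairs together, so a weaker pair also raises the adjusted p of the others. Called adrenomedullin partners numbered 3 with quality weights, 2 in the authors' deposited table and 1 to 2 with 1 library left out (2 without control 1). Called stanniocalcin partners numbered 2 to 5 (5 without control 1), and 1 without control 2 and mutant 2. All called genes numbered 605 at a threshold of 0.01, 697 in the deposited values, 2996 with quality weights, 774 to 1565 with 1 library left out (816 without control 4, 774 without mutant 4), 662 with control 2 and mutant 2 left out, and 764 with control 3 and mutant 2 left out; both pairs were chosen after seeing the data. The ligand to receptor-part ratio with the union of exons was 1.43 in mutants and 0.199 in controls, also chosen after seeing the data. The labels do not say whether same-numbered libraries share an origin. Deviations of same-numbered libraries correlated at 0.21, -0.14, -0.14 and 0.06. The highest correlation of a mutant with any control was 0.57, for mutant 2 with control 3. These values cannot settle whether libraries share an embryo, litter or day. With the replicate block 766 genes were called, and no call of a member changed. The cause of these shifts was not tested. Depth limits Ramp1 and the control level of Adm2.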
